A study of Mus musculus with 24 samples.

Results

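Lipopolysaccharide (LPS), a cell wall component of Gram-negative bacteria, was compared with saline in CD11b-positive cells of the frontal cortex of control mice. The comparison rests on 6 of the 24 libraries of the series, chosen by their labels as control offspring, frontal cortex, LPS (3 libraries) and control offspring, frontal cortex, saline (3 libraries), and it was described over the 17125 genes that passed the filter on low counts. The mice were males 8 to 10 weeks old, labelled CON for prenatal history, in contrast to offspring of maternal immune activation (MIA). LPS was injected into the peritoneum at 4500 endotoxin units per gram of body weight, and cells of both groups were taken 18 h after LPS or saline. Strain, litter and the treatment of the control dams are not given in the sources used here. Per the labels, mice were perfused, meninges were stripped, the tissue was digested with papain, and cells were held on a magnetic column by CD11b, a surface protein of microglia that neutrophils, monocytes, natural killer cells and border macrophages also carry. Bulk RNA was turned into cDNA from its poly(A) tail by a Smart-Seq2 type protocol. The LPS effect was also set against that in control striatum and in MIA cortex, each with LPS and saline and 3 libraries a group. The fit took in 23 libraries of all 8 groups, so the other groups bear on the filter and on the estimate of the spread, and 2568 of 14066 genes were called from the 6 libraries alone.

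Microglia are the resident macrophages of the brain. In the healthy adult they survey the tissue and express a set of genes, among them P2ry12 and Tmem119, that depends on transforming growth factor beta and on the transcription factor Sall1. LPS is recognised by the receptor TLR4 with CD14 and MD-2, which signals through MYD88 to NF-kB and cytokine genes and through TRIF to interferon beta, whose receptor then drives STAT factors and IRF9. LPS given into the peritoneum also acts through blood vessels and circulating cytokines.

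The 3 LPS libraries held 21646185, 24639518 and 24711557 counts, and the 3 saline libraries 24367121, 20444188 and 20989339. Between 18074 and 18920 genes had a count in a library. Values below are CPM (read counts scaled to a common library total) after TMM scaling, given in the order of replicates 1, 2 and 3. They are not divided by transcript length and are compared between groups within a gene. Markers of microglia were present in all 6 libraries, with Tmem119, a membrane protein gene used to mark microglia, at 2784, 2461 and 3747 CPM after LPS, against 4629, 4623 and 5986 CPM after saline. The T cell marker Cd3e lay between 0 and 0.0484 CPM and the B cell marker Cd79a between 0 and 0.406 CPM over the 6 libraries. LPS replicate 1 stood apart in astrocyte markers, whose summed level was 1910 CPM there, 891 and 866 CPM in LPS replicates 2 and 3, and 1088 to 1240 CPM in the saline libraries. Replicates were further apart after LPS: over the 8631 genes with at least 10 CPM, the median SD of log2 CPM was 0.260 in LPS libraries and 0.168 in saline libraries. Because the RNA is bulk, fewer cells of a type and less RNA per cell cannot be told apart in any value below.

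Of the 17125 genes tested, 3112 (18.2%) were called at an adjusted p under 0.05 (edgeR quasi-likelihood test, Benjamini-Hochberg adjustment over all genes tested). Of these, 1870 were higher after LPS (10.9% of genes tested) and 1242 were lower (7.25%). Among the called genes, 369 were at least 4-fold higher (2.15% of genes tested) and 173 at least 4-fold lower (1.01%). The LPS and saline libraries did not overlap for 5738 genes (33.5%), and 3053 of the called genes were among them. The genes called higher together took 29.1% of all CPM in LPS libraries and 14.7% in saline libraries, and the genes called lower took 14.5% in LPS libraries and 26.01% in saline libraries. By gene class, 1806 of the 1870 higher and 1172 of the 1242 lower genes were protein coding. Among 389 long intergenic RNAs tested, 15 rose and 28 fell, and among 443 antisense RNAs 4 rose and 12 fell. Whether counting used strand is not stated, so reads of an antisense RNA and its partner may not be told apart. The shares of all genes tested, 10.9% higher and 7.25% lower, are the background for the counts of list members below. Each called gene named with its levels below had LPS and saline libraries that did not overlap, which for the largest rises and falls was part of how they were chosen.

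**Figure D1:**
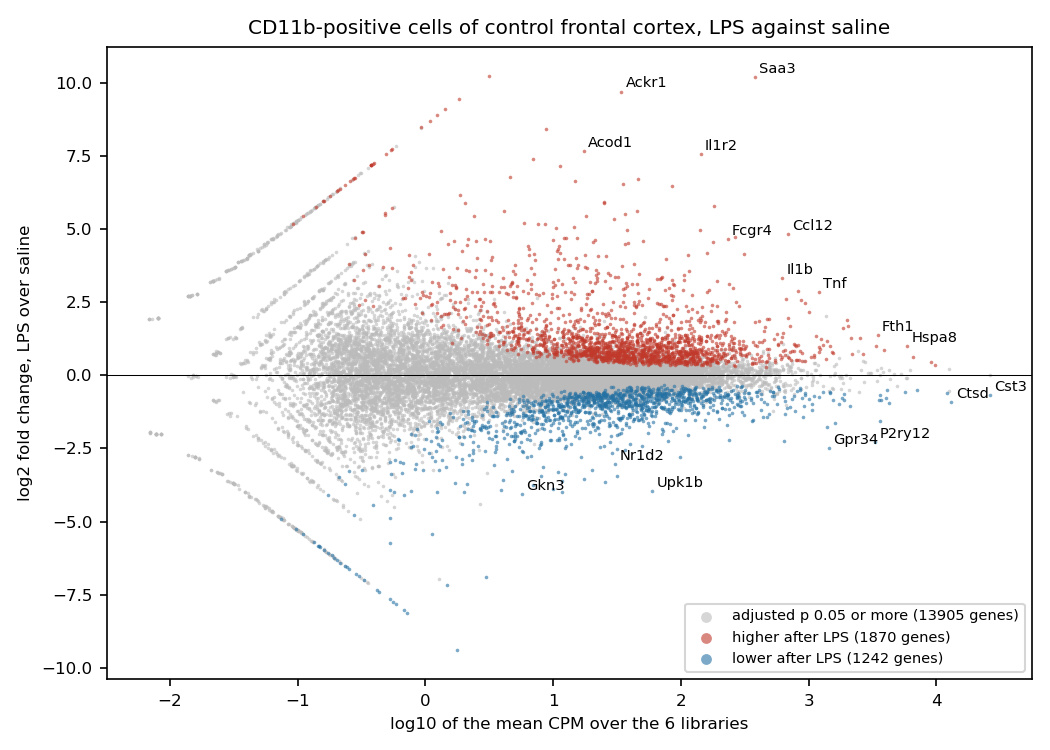
Log2 fold change, LPS over saline, of each gene with a count in at least 1 of the 6 control cortex libraries (y axis) against the log10 of its mean CPM (x axis). Red points are the 1870 genes called higher after LPS, blue points the 1242 called lower, and grey points the genes that did not pass; Saa3 lies highest among the labelled genes and Gkn3 and Upk1b lowest.

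Taking called genes that averaged 10 CPM or more in 1 of the groups, the largest rises among those whose groups did not overlap were of secreted defence genes, receptors and signalling enzymes at a low level after saline. Saa3, an acute-phase apolipoprotein, stood at 955, 728 and 612 CPM after LPS, against 0.0418, 0.507 and 1.40 CPM after saline. Among the saline libraries replicate 1 was lowest and replicate 3 highest. The log2 fold change of Saa3 was 10.21 ± 1.44 (standard error, SE; adjusted p = 3.5e-05), and the ± after every log2 fold change below is the SE. Ackr1, a chemokine-scavenging receptor of venules and red cells, had 63.4, 80.9 and 60.3 CPM after LPS, against 0.167, 0 and 0.0468 CPM after saline (9.71 ± 0.71, adjusted p = 1.5e-08). Acod1, which makes itaconate in activated macrophages, was highest in LPS replicate 1, with 63.5, 20.02 and 20.9 CPM after LPS, against 0.376, 0.101 and 0 CPM after saline (7.66 ± 1.10, adjusted p = 4.2e-05). Il1r2, the decoy receptor for interleukin-1, was evenly high, with 321, 228 and 308 CPM after LPS, against 1.38, 1.32 and 1.78 CPM after saline (7.58 ± 0.61, adjusted p = 4.1e-08). Ikbke, a kinase acting on interferon regulatory factors, had 18.6, 9.64 and 13.3 CPM after LPS, against 0, 0 and 0.234 CPM after saline (7.39 ± 1.00, adjusted p = 2.3e-05). Cd244a, a receptor of the SLAM family, had 164, 128 and 212 CPM after LPS, against 1.76, 2.23 and 1.68 CPM after saline (6.47 ± 0.47, adjusted p = 1.5e-08). For these genes the saline libraries were all under 3 CPM and the lowest LPS library was above 9 CPM. Serpina3n, a secreted protease inhibitor, held 1171 counts over the LPS libraries and 3 over the saline libraries, a ratio of 373 with a 95% counting interval of 127 to 1811. Saa3 and Serpina3n belong to families of near-identical copies, so how reads were split among the copies is uncertain. Plet1, Adamtsl4 and Ccl5 completed the 15 largest rises with Lrg1, Lcn2, Il12b, Marco and Cfb, described with their groups below, and their log2 fold changes were 5.92, 5.89 and 5.61.

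Under the same minimum and choice, the 15 largest falls were of genes with a mean of 10.9 to 112 CPM after saline. Upk1b, a tetraspanin gene that is also a microglial marker, had 7.22, 7.37 and 7.05 CPM after LPS, against 111, 139 and 86.8 CPM after saline, and its 3 LPS libraries were nearly equal (log2 fold change -3.96 ± 0.24, adjusted p = 1.6e-09). Gkn3, a gastrokine family gene, had 0.194, 1.36 and 0.346 CPM after LPS, against 14.3, 13.9 and 4.40 CPM after saline, with saline replicate 3 below the other two (-4.06 ± 0.77, adjusted p = 0.00066). Tet1, a dioxygenase that oxidises methylcytosine, had 1.36, 0.494 and 1.04 CPM after LPS, against 10.3, 15.3 and 13.1 CPM after saline (-3.74 ± 0.41, adjusted p = 2.0e-06). Npnt, an integrin ligand of the extracellular matrix, had 5.81, 3.17 and 2.46 CPM after LPS, against 54.4, 38.5 and 48.7 CPM after saline (-3.63 ± 0.31, adjusted p = 7.6e-08). Mycl, a MYC family transcription factor, had 2.28, 3.17 and 10.8 CPM after LPS, against 72.9, 62.7 and 39.3 CPM after saline, with LPS replicate 3 above the other two (-3.43 ± 0.58, adjusted p = 0.00026). The other falls among the 15 largest were of Ccdc162, Angptl7, Rapsn, Cd209a, Tnfrsf17, Gprasp2, Ptger3, Klhl3, Myo18b and Nr1d2, from -4.003 to -3.04 on the log2 scale.

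Measured as CPM gained or lost, the changes were in abundant genes. Hspa8, a constitutive heat shock chaperone, had the largest gain, with 10280.1, 5997 and 7525 CPM after LPS, against 4412, 3913 and 3471 CPM after saline, and LPS replicate 1 was the highest library (log2 fold change 1.01 ± 0.23, adjusted p = 0.0035). Fth1, the iron-storing ferritin heavy chain, had 5792, 5201 and 4073 CPM after LPS, against 2117, 1919 and 1756 CPM after saline (1.38 ± 0.16, adjusted p = 5.1e-06); near-identical copies of Hspa8 and Fth1 make the split of their reads uncertain. Cst3, the secreted inhibitor of cathepsins, had the largest loss, with 17910.1, 23766 and 18787 CPM after LPS, against 32149.9, 35930.1 and 28365 CPM after saline (-0.67 ± 0.16, adjusted p = 0.00558). Its LPS libraries lay below all saline libraries although the fold was small. Ctsd, the lysosomal protease cathepsin D, had 8216, 9517 and 9737 CPM after LPS, against 16041, 17278 and 18079 CPM after saline (-0.90 ± 0.15, adjusted p = 0.00022). Selenop, which carries selenium, had 1832, 1859 and 1804 CPM after LPS, against 5862, 5496 and 5003 CPM after saline (-1.57 ± 0.14, adjusted p = 1.5e-07). Itm2b, a membrane protein gene, had 2891, 2744 and 3175 CPM after LPS, against 5493, 5878 and 5589 CPM after saline (-0.94 ± 0.11, adjusted p = 4.1e-06).

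**Figure D2:**
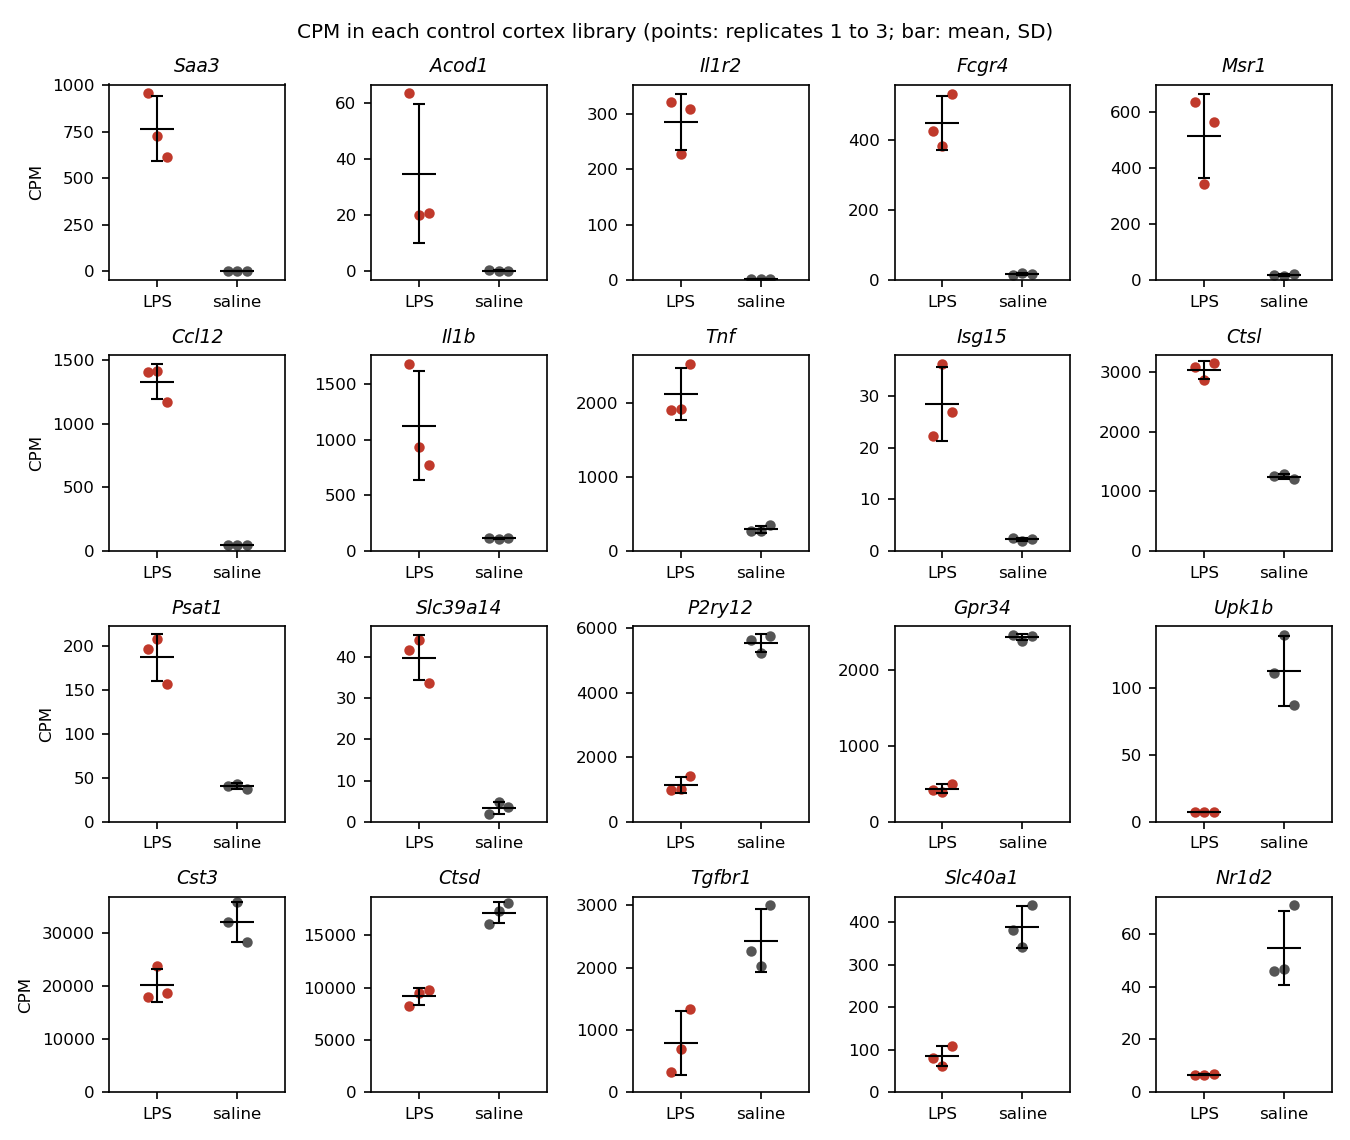
CPM of 20 genes in each control cortex library (y axis, linear, 1 panel per gene), LPS libraries on the left and saline libraries on the right of each panel. Points are replicates 1, 2 and 3 from left to right and the black bar is the mean with its SD (n = 3). The groups do not overlap in any of the 20 panels, with Saa3 at 612 to 955 CPM after LPS and P2ry12 at 968 to 1428 CPM after LPS. All 20 were picked from called genes, so this is largely due to the choice: 3053 of the 3112 called genes did not overlap, against 33.5% of all genes tested.

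Most tested genes of surveying microglia fell, to different depths. Of 27 tested surface and secreted genes of homeostatic microglia, 20 fell, none rose and 7 did not pass, with a median log2 fold change of -0.84 (median of all genes tested, 0.04). P2ry12, the ADP receptor by which microglial processes find injury, had 968, 1006 and 1428 CPM after LPS, against 5620.3, 5212 and 5757 CPM after saline (-2.29 ± 0.18, adjusted p = 3.2e-08). Gpr34, a lysophosphatidylserine receptor, had 411, 395 and 503 CPM after LPS, against 2465, 2386 and 2444 CPM after saline (-2.48 ± 0.12, adjusted p = 1.0e-10). Both genes kept a clear level after LPS, with no overlap between groups. Siglech, a sialic acid receptor, had 623, 644 and 646 CPM after LPS, against 2098, 2355 and 2021 CPM after saline (-1.76 ± 0.16, adjusted p = 2.1e-07). Slc2a5, a fructose transporter, had 184, 168 and 319 CPM after LPS, against 1026, 1076 and 1069 CPM after saline, LPS replicate 3 being the highest of its group (-2.24 ± 0.26, adjusted p = 3.0e-06). Falls were shallower for Fcrls (-0.84 ± 0.14, adjusted p = 0.00019), Tmem119 (-0.76 ± 0.22, adjusted p = 0.017) and Cx3cr1, the fractalkine receptor (-0.49 ± 0.14, adjusted p = 0.0191). Tmem119 did not pass without LPS replicate 1, LPS replicate 2 or saline replicate 3, and Cx3cr1 did not pass without LPS replicates 2 or 3 or saline replicates 2 or 3, with all 24 libraries, from the 6 libraries alone or without the filter.

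Among 22 transcription factors of microglial identity, 4 fell. Sall1, which maintains the surveying state in mice, had 114, 159.6 and 126 CPM after LPS, against 329, 369 and 324 CPM after saline (-1.35 ± 0.18, adjusted p = 2.2e-05). Mef2c, a MADS box factor, had 305, 335 and 295 CPM after LPS, against 602, 600.0 and 565 CPM after saline (-0.92 ± 0.12, adjusted p = 1.8e-05). Lyl1, a helix-loop-helix factor, had 38.4, 43.6 and 41.3 CPM after LPS, against 69.5, 75.4 and 92.4 CPM after saline (-0.94 ± 0.20, adjusted p = 0.00181). The other that fell, Mef2a, lost its call when any 1 of 5 of the 6 libraries was left out, with all 24 libraries and from the 6 libraries alone. Spi1, which encodes the myeloid master factor PU.1, went the other way, with 492, 429 and 411 CPM after LPS, against 338, 346 and 309 CPM after saline (0.42 ± 0.12, adjusted p = 0.0159), and it did not pass without LPS replicate 1 or saline replicate 3, with all 24 libraries, from the 6 libraries alone or without the filter. Of 26 tested genes of transforming growth factor beta signalling 2 rose, 3 fell and 21 did not pass, and 1 rose from the 6 libraries alone, with all 24 libraries, or without LPS replicate 1, LPS replicate 3 or saline replicate 2. Tgfbi, a matrix protein induced by the pathway, rose (0.83 ± 0.20, adjusted p = 0.00634). So did the corepressor gene Tgif1 (0.55 ± 0.16, adjusted p = 0.0211), which did not pass in those settings or without saline replicate 3. Among those that fell, the receptor gene Tgfbr1 had 332, 701 and 1345 CPM after LPS, against 2266, 2030.2 and 3004 CPM after saline (-1.62 ± 0.36, adjusted p = 0.0029), with the LPS libraries spread widely below the saline libraries, and it did not pass with all 24 libraries (adjusted p = 0.0613). The co-receptor gene Eng had 119, 121 and 111 CPM after LPS, against 215, 218 and 234 CPM after saline (-0.93 ± 0.17, adjusted p = 0.00061). The feedback gene Pmepa1, a target of the pathway, had 33.6, 68.4 and 42.1 CPM after LPS, against 103, 146 and 101.1 CPM after saline (-1.28 ± 0.27, adjusted p = 0.00212). Genes of purinergic signalling moved both ways. P2ry2, a receptor for ATP and UTP, had 22.4, 22.6 and 16.5 CPM after LPS, against 2.68, 0.101 and 1.08 CPM after saline (3.97 ± 0.55, adjusted p = 2.9e-05). Entpd1 (CD39), which degrades ATP, had 584, 597 and 962 CPM after LPS, against 1211, 1331 and 1715 CPM after saline (-0.99 ± 0.19, adjusted p = 0.00086).

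Genes that sense LPS changed unevenly. Of 28 tested sensing and adaptor genes, 7 rose, with a list median of 0.16 on the log2 scale. Cd14, the LPS co-receptor, had 2893, 2061 and 3439 CPM after LPS, against 1009, 775 and 953 CPM after saline (1.62 ± 0.24, adjusted p = 5.2e-05). Tlr2, which binds bacterial lipoproteins, had 1302, 835 and 1153 CPM after LPS, against 356, 326 and 332 CPM after saline (1.70 ± 0.16, adjusted p = 3.2e-07). Tlr1, its partner, had 148, 132 and 135 CPM after LPS, against 53.7, 51.1 and 55.4 CPM after saline (1.37 ± 0.14, adjusted p = 8.8e-07). All 3 were lowest after LPS in replicate 2. Tlr4, the LPS receptor itself, had 107, 126 and 194 CPM after LPS, against 153, 141 and 183 CPM after saline, so its groups overlapped and it did not pass (-0.16 ± 0.25, adjusted p = 0.754). Ly96, which encodes the TLR4 partner MD-2, fell, with 14.2, 19.5 and 16.3 CPM after LPS, against 26.003, 29.9 and 33.4 CPM after saline (-0.84 ± 0.18, adjusted p = 0.00227). Irak3, a pseudokinase that brakes this pathway, had 25.2, 16.7 and 23.8 CPM after LPS, against 6.06, 3.90 and 10.2 CPM after saline (1.70 ± 0.32, adjusted p = 0.00067). The adaptor gene Myd88 rose by 0.81 ± 0.12 (adjusted p = 8.3e-05) on the log2 scale.

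Of 25 NF-kB subunits, inhibitors and feedback genes 10 rose, and 6 did without LPS replicate 1. The subunit gene Nfkb1 was the only member called lower, and 14 were called in neither direction. Nfkb1 lost its call when LPS replicate 3, saline replicate 2 or saline replicate 3 was left out, with log2 fold changes of -0.701, -0.805 and -0.806. Nfkb2, the p100 subunit gene, had 81.9, 52.9 and 47.3 CPM after LPS, against 27.7, 19.98 and 15.9 CPM after saline (1.52 ± 0.26, adjusted p = 0.00026). Nfkbiz, an atypical inhibitor that also activates targets, had 1796, 1199 and 1812 CPM after LPS, against 916, 709.6 and 848 CPM after saline (0.96 ± 0.19, adjusted p = 0.00105). Birc3, an inhibitor of apoptosis and NF-kB target, rose by 1.16 ± 0.25 (adjusted p = 0.00256), and the co-activator gene Bcl3 by 3.45 ± 0.69 (adjusted p = 0.00109). Of 20 inflammasome and pyroptosis genes 10 rose. The sensor gene Nlrp3 had 314, 106 and 260.3 CPM after LPS, against 58.1, 53.5 and 70.0 CPM after saline, lowest of its group in LPS replicate 2 (1.90 ± 0.31, adjusted p = 0.00019). Genes acting downstream of the sensors and one inhibitor were also higher. Casp4, the caspase that binds cytosolic LPS in mice, had 51.5, 35.9 and 44.4 CPM after LPS, against 15.97, 22.01 and 13.9 CPM after saline (1.35 ± 0.25, adjusted p = 0.00051). The pore-forming Gsdmd had 139, 121 and 136 CPM after LPS, against 92.2, 93.8 and 94.7 CPM after saline (0.50 ± 0.10, adjusted p = 0.00118). Il18bp, which neutralises interleukin-18, had 42.8, 21.6 and 59.8 CPM after LPS, against 4.22, 2.94 and 3.74 CPM after saline (3.50 ± 0.46, adjusted p = 1.5e-05). Nek7, a kinase that NLRP3 needs, fell, with 96.5, 109.8 and 129 CPM after LPS, against 211, 201 and 194 CPM after saline (-0.85 ± 0.13, adjusted p = 8.1e-05).

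Most tested cytokine and chemokine ligands rose. Of 36 tested, 23 rose, and the list median was 2.03 on the log2 scale. Tnf had 1908, 1917 and 2528 CPM after LPS, against 262, 272 and 346 CPM after saline (2.85 ± 0.27, adjusted p = 3.6e-07). Il1a, interleukin-1 alpha, had 4696, 1632 and 3189.7 CPM after LPS, against 990.4, 661 and 899.5 CPM after saline (1.90 ± 0.34, adjusted p = 0.00046). Il1b had 1682, 933 and 770.2 CPM after LPS, against 117, 106 and 115 CPM after saline, with LPS replicate 1 above the other two (3.32 ± 0.24, adjusted p = 1.5e-08). Ccl12, a monocyte attractant of mice, was even between replicates, with 1407, 1413 and 1174 CPM after LPS, against 48.8, 48.8 and 43.0 CPM after saline (4.83 ± 0.31, adjusted p = 2.5e-09). Their order among LPS replicates differed, replicate 3 being highest for Tnf and replicate 1 for Il1a and Il1b. Il12b, the shared subunit of interleukins 12 and 23, had 48.6, 10.6 and 8.17 CPM after LPS, against 0.209, 0 and 0.234 CPM after saline, again highest in LPS replicate 1 (7.16 ± 1.00, adjusted p = 3.2e-05). Osm, oncostatin M, had 294, 196 and 362 CPM after LPS, against 55.3, 54.5 and 75.0 CPM after saline (2.21 ± 0.24, adjusted p = 2.1e-06). The antagonist of interleukin-1, Il1rn, had 57.4, 27.9 and 33.7 CPM after LPS, against 1.25, 2.18 and 1.64 CPM after saline (4.55 ± 0.41, adjusted p = 1.6e-07). Not every ligand moved this way. Il10, an anti-inflammatory cytokine, had 13.5, 1.69 and 4.37 CPM after LPS, against 3.34, 2.08 and 1.64 CPM after saline and did not pass (1.46 ± 0.64, adjusted p = 0.13). Il16 fell, with 113, 135 and 150.3 CPM after LPS, against 267, 277 and 314 CPM after saline (-1.10 ± 0.20, adjusted p = 0.00037). Csf3, granulocyte colony-stimulating factor, had 10.9, 4.37 and 3.67 CPM after LPS and 0 counts in every saline library. Against a floor of 3 counts over the saline group, it was at least 137-fold higher after LPS.

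Receptors for these ligands moved both ways. Of 36 tested, 13 rose and 3 fell, and 8 rose without saline replicate 2. Il4ra, the interleukin-4 receptor chain, had 827, 689 and 812 CPM after LPS, against 194, 184 and 232 CPM after saline (1.93 ± 0.22, adjusted p = 2.4e-06). The common gamma chain Il2rg had 83.6, 61.6 and 77.8 CPM after LPS, against 14.97, 13.2 and 14.5 CPM after saline (2.39 ± 0.26, adjusted p = 1.5e-06). Both chains of the interleukin-6 receptor were called lower. Il6ra, which binds the cytokine, had 179, 162 and 212 CPM after LPS, against 360.3, 325 and 401 CPM after saline (-0.97 ± 0.18, adjusted p = 0.00058). Il6st, the shared signalling chain, had 110.0, 114 and 163 CPM after LPS, against 238, 255 and 206 CPM after saline (-0.85 ± 0.21, adjusted p = 0.00695), and it did not pass with all 24 libraries (adjusted p = 0.12). Cxcr3, a receptor for interferon-induced chemokines, had 1.598, 1.52 and 1.43 CPM after LPS, against 5.94, 6.44 and 7.86 CPM after saline (-2.15 ± 0.41, adjusted p = 0.00081). Growth factor and matrix genes also moved both ways. Csf1, the ligand of the CSF1 receptor, rose, with 127, 64.8 and 109.8 CPM after LPS, against 47.5, 28.96 and 27.3 CPM after saline (1.54 ± 0.30, adjusted p = 0.00092). Igf1 fell, with 10.7, 4.74 and 6.70 CPM after LPS, against 15.1, 14.2 and 17.7 CPM after saline (-1.09 ± 0.25, adjusted p = 0.00403). Spp1, osteopontin, had 368, 279.9 and 374 CPM after LPS, against 15.4, 7.76 and 20.4 CPM after saline (4.55 ± 0.36, adjusted p = 3.3e-08).

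Acute-phase and secreted defence genes rose in 14 of 17 tested members, with a median of 3.02 on the log2 scale. Lcn2, which binds bacterial iron chelators, had 382, 503 and 178 CPM after LPS, against 7.44, 10.0 and 1.87 CPM after saline (5.78 ± 0.68, adjusted p = 4.3e-06). Lrg1, a leucine-rich glycoprotein, had 91.4, 81.5 and 99.3 CPM after LPS, against 0.585, 1.32 and 0.702 CPM after saline (6.72 ± 0.52, adjusted p = 2.6e-08). Cfb, factor B of the alternative complement pathway, had 61.2, 48.2 and 100.1 CPM after LPS, against 0.711, 0.761 and 0.749 CPM after saline (6.55 ± 0.61, adjusted p = 2.7e-07). Lcn2 varied most, with LPS replicate 3 lowest. Neutrophil markers moved with these genes: 10 of 19 tested rose, the summed level of the list was 956 to 1129 CPM in LPS libraries and 415 to 665 CPM in saline libraries, and Ly6g, which defines neutrophils, lay at 1.69 to 2.08 CPM after LPS and 0 to 1.52 CPM after saline. Their part in the result was not tested.

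Of 22 complement genes, 11 rose. C5ar1, the receptor for C5a, had 1397, 1065 and 2055 CPM after LPS, against 212, 175 and 369 CPM after saline (2.58 ± 0.36, adjusted p = 3.7e-05). C3ar1, the C3a receptor, had 1021, 951 and 1192 CPM after LPS, against 536, 496 and 559 CPM after saline (0.99 ± 0.13, adjusted p = 1.6e-05). Cd55, which protects cells from complement, had 50.7, 27.4 and 26.8 CPM after LPS, against 4.64, 3.19 and 3.60 CPM after saline (3.19 ± 0.43, adjusted p = 1.9e-05). C1q, which starts the classical pathway, is built of 3 kinds of chain. C1qa had 8173, 7381 and 8589 CPM after LPS, against 5129, 5344 and 5083 CPM after saline (0.63 ± 0.16, adjusted p = 0.00663). C1qb rose by 0.45 ± 0.15 (adjusted p = 0.0404) but lost its call when any 1 of 5 of the 6 libraries was left out, from the 6 libraries alone and without the filter. C1qc had 5129, 5087 and 5897 CPM after LPS, against 5174, 5509.9 and 4995 CPM after saline and did not pass (0.04 ± 0.17, adjusted p = 0.926). Of 7 Fc receptor genes tested 5 rose, and Fcgr4, an activating receptor for IgG2, had the smallest adjusted p of all genes. Its levels were 427, 383 and 533 CPM after LPS, against 15.01, 20.4 and 17.5 CPM after saline (4.67 ± 0.19, adjusted p = 5.8e-12). Fcgr1, the high-affinity IgG receptor, had 857, 1022 and 912 CPM after LPS, against 346, 360.0 and 315 CPM after saline (1.45 ± 0.14, adjusted p = 4.4e-07).

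Of 24 scavenger, pattern and formyl peptide receptors 13 rose. Msr1, the class A scavenger receptor, had 633, 344 and 563 CPM after LPS, against 18.8, 16.2 and 23.2 CPM after saline (4.72 ± 0.30, adjusted p = 2.1e-09). Marco, of the same class, had 57.9, 20.6 and 9.55 CPM after LPS, against 0, 0.913 and 0 CPM after saline, LPS replicate 1 being highest and replicate 3 lowest (6.65 ± 1.05, adjusted p = 0.00018). Smaller receptors of innate sensing rose too. Trem1, an amplifier of Toll-like receptor signals, had 66.2, 47.6 and 102 CPM after LPS, against 1.09, 2.23 and 1.45 CPM after saline (5.51 ± 0.52, adjusted p = 2.7e-07). Clec4d, a C-type lectin, had 26.2, 19.8 and 17.7 CPM after LPS, against 0.752, 1.67 and 0.562 CPM after saline (4.42 ± 0.63, adjusted p = 3.9e-05). Cd36, a fatty acid scavenger, fell, with 22.5, 9.64 and 19.5 CPM after LPS, against 47.9, 45.8 and 46.4 CPM after saline (-1.44 ± 0.34, adjusted p = 0.00441). Of 30 integrin, adhesion and motility genes 11 rose, among them genes of leukocyte adhesion. Itgal (LFA-1 alpha) had 30.2, 39.5 and 49.1 CPM after LPS, against 3.22, 4.56 and 3.18 CPM after saline (3.44 ± 0.37, adjusted p = 1.6e-06). Cd44, the hyaluronan receptor, had 33.3, 32.8 and 29.01 CPM after LPS, against 3.14, 5.83 and 6.36 CPM after saline (2.63 ± 0.37, adjusted p = 3.4e-05). Blood monocyte markers moved with these genes, 9 of 20 tested being higher. The summed level of that list was 732 to 1349 CPM in LPS libraries and 725 to 893 CPM in saline libraries, and Ccr2, which defines classical monocytes, had 5.91, 6.72 and 17.3 CPM after LPS, against 7.90, 10.9 and 13.5 CPM after saline. Ly6c2, the other defining marker, had 15.98, 37.6 and 48.8 CPM after LPS, against 3.09, 3.20 and 1.73 CPM after saline. The part of monocytes in the adhesion result was not tested.

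Interferon-induced genes were higher in nearly all tested members. Of 49 tested antiviral effectors, 44 rose and 5 did not pass, with a median of 2.48 on the log2 scale. Promoter stretches of a few genes that rose, and of P2ry12, which fell, are shown because the ISRE and NF-kB motifs are the textbook elements of interferon and LPS responses. They are from RefSeq, build GRCm38.p6, end at the base before the annotated start and read 5' to 3' on the gene's strand. Capitals mark matches, on either strand, to GAAANNGAA (the core of the interferon-stimulated response element, ISRE), TTCNNNGAA (STAT), TGANTCA (AP-1), GAGGAAGT (PU.1) or the NF-kB consensus. Isg15 is at chr4:156200819-156200948 (minus strand), Ifit1 at chr19:34640759-34640888 (plus), Rsad2 at chr12:26456453-26456582 (minus), Cxcl10 at chr5:92348890-92349109 (minus), Saa3 at chr7:46715677-46715806 (minus), Fcgr4 at chr1:171018766-171018925 (plus) and P2ry12 at chr3:59262986-59263115 (minus).
Isg15: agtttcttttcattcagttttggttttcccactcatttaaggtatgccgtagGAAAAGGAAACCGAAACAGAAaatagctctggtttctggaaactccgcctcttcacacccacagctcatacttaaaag
Ifit1: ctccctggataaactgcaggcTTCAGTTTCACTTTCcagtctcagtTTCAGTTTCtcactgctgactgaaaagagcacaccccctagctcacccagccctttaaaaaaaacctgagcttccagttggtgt
Rsad2: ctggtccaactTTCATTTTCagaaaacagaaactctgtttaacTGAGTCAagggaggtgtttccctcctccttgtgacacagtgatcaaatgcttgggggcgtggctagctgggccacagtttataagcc
Cxcl10: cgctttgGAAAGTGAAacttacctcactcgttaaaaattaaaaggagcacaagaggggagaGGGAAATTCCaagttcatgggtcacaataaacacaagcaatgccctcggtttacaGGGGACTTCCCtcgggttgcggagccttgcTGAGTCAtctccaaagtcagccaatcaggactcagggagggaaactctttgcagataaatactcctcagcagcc
Saa3: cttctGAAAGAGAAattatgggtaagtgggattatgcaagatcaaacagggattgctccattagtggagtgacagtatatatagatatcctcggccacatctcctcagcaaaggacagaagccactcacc
Fcgr4: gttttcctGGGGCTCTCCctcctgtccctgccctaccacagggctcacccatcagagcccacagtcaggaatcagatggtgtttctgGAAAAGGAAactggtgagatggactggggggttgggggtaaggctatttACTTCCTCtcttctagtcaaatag
P2ry12: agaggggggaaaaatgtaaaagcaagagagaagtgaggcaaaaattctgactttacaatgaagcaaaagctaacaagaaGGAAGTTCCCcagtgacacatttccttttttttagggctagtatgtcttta
The capitals of Isg15 are 3 overlapping ISRE cores that begin 78 bases before the start, and those of Ifit1 are 3 cores on the other strand, the first pair overlapping and beginning 109 bases before the start. Rsad2 held 1 core, at 119 bases, and 1 AP-1 match, at 87 bases. Cxcl10 held an ISRE core at 213 bases, NF-kB matches at 159 bases and, overlapping each other, at 104 and 103 bases, and an AP-1 match at 74 bases. Saa3 held 1 ISRE core, at 125 bases. Fcgr4 held an NF-kB match at 152 bases, an ISRE core at 73 bases and a PU.1 match at 24 bases, and P2ry12 held 1 NF-kB match, at 51 bases. Over the 300-base promoters of 12001 tested genes, 7.57% held an ISRE core, 10.1% an NF-kB match, 6.92% a STAT match, 5.22% an AP-1 match and 3.16% a PU.1 match. The matches of the genes shown were searched only in the printed stretches, which are shorter than 300 bases, so they are not comparable with these shares. Stretch length was chosen per gene, 220 bases for Cxcl10, 160 for Fcgr4 and 130 for the others, so matches are not comparable between genes either. A promoter was held for 270 of the 369 genes that rose at least 4-fold (73.2%) and 122 of the 173 that fell at least 4-fold (70.5%), so a comparison of motif shares between these groups is void. A match of letters is a description and not evidence of binding.

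The genes whose promoters are shown had the following levels. Isg15, a ubiquitin-like protein, had 22.2, 36.2 and 26.9 CPM after LPS, against 2.51, 1.88 and 2.29 CPM after saline (3.67 ± 0.55, adjusted p = 6.5e-05). Ifit1, which binds foreign RNA caps, had 64.2, 48.0 and 64.1 CPM after LPS, against 4.81, 6.09 and 6.36 CPM after saline (3.35 ± 0.51, adjusted p = 7.8e-05). Rsad2 (viperin) had 43.8, 40.0 and 37.5 CPM after LPS, against 4.01, 3.65 and 4.49 CPM after saline (3.32 ± 0.49, adjusted p = 6.3e-05). In these 3 genes every LPS library was over 20 CPM and every saline library under 7 CPM. The chemokine gene Cxcl10 was highest in LPS replicate 1, with 254, 112 and 98.7 CPM after LPS, against 16.8, 20.3 and 15.7 CPM after saline (3.13 ± 0.38, adjusted p = 7.0e-06). Ifitm3, a membrane protein that blocks viral entry, had 508, 617 and 646 CPM after LPS, against 35.6, 32.8 and 32.1 CPM after saline (4.14 ± 0.38, adjusted p = 2.1e-07). Usp18, which removes ISG15 and dampens the interferon receptor, had 111, 100.0 and 160.4 CPM after LPS, against 10.95, 14.9 and 12.2 CPM after saline (3.29 ± 0.55, adjusted p = 0.0002). Slfn2 had 388, 429 and 551 CPM after LPS, against 69.4, 58.7 and 44.0 CPM after saline (2.99 ± 0.19, adjusted p = 2.1e-09). Of 20 tested JAK-STAT and interferon regulatory factor genes 6 rose, 1 fell and 13 did not pass, with a median of 0.18 on the log2 scale. Irf4 was the member that fell. It did not pass without any single LPS replicate, without saline replicate 1 or 2, with all 24 libraries or without the filter. The count of falls was 3 by DESeq2 and 2 with DESeq2 size factors. Irf7 and Irf9 were among the genes that rose. Irf7 had 136, 129 and 168 CPM after LPS, against 11.9, 8.32 and 7.35 CPM after saline (3.97 ± 0.60, adjusted p = 6.8e-05). Irf9 had 132, 149.9 and 186 CPM after LPS, against 83.1, 69.4 and 74.1 CPM after saline (1.05 ± 0.17, adjusted p = 0.00012). Guanylate-binding proteins and immunity-related GTPases, which attack pathogen vacuoles, rose in 13 of 17 tested members. Gbp2 had 149, 81.2 and 222 CPM after LPS, against 20.5, 21.6 and 27.1 CPM after saline (2.71 ± 0.40, adjusted p = 5.5e-05). Of 22 nucleic acid sensors 11 rose. Zbp1, a sensor of left-handed nucleic acids, had 67.8, 70.0 and 82.2 CPM after LPS, against 2.76, 2.23 and 2.01 CPM after saline (4.97 ± 0.58, adjusted p = 4.2e-06). The nuclease gene Trex1 had 320.1, 349 and 401 CPM after LPS, against 102, 96.8 and 82.6 CPM after saline (1.93 ± 0.18, adjusted p = 3.6e-07). Reads of Ifi204 and its relatives, of the Oas genes and of Tgtp1 and Tgtp2 are shared between near-identical genes, so their split is uncertain.

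Genes of MHC class I were higher in part and those of class II lower in part. Of 21 MHC class I and peptide loading genes, 11 rose. B2m, the light chain, had 4099.8, 4667 and 4824 CPM after LPS, against 2283, 2319 and 2204 CPM after saline (1.00 ± 0.15, adjusted p = 5.2e-05). H2-T23 had 604, 588 and 798 CPM after LPS, against 214, 246 and 231 CPM after saline (1.53 ± 0.25, adjusted p = 0.00016). Mr1, which presents vitamin metabolites, fell, with 17.2, 11.9 and 23.9 CPM after LPS, against 32.7, 34.7 and 37.7 CPM after saline (-0.99 ± 0.21, adjusted p = 0.00211). Of 14 MHC class II genes tested 5 fell, and 3 did without LPS replicate 1 or saline replicate 2. H2-Eb1 had 24.5, 17.7 and 43.1 CPM after LPS, against 97.9, 119 and 123 CPM after saline (-1.99 ± 0.39, adjusted p = 0.00089). H2-Aa had 34.6, 24.3 and 56.8 CPM after LPS, against 107, 111 and 136 CPM after saline (-1.61 ± 0.36, adjusted p = 0.00271). H2-Ob, which restrains peptide loading, had 19.2, 24.1 and 27.3 CPM after LPS, against 63.5, 67.0 and 73.7 CPM after saline (-1.53 ± 0.20, adjusted p = 1.3e-05). The invariant chain gene Cd74 had 352, 181 and 435 CPM after LPS, against 377, 369.7 and 482 CPM after saline and did not pass (-0.34 ± 0.32, adjusted p = 0.544). Reads of H2 genes are shared between near-identical copies, so these values are uncertain. Immunoproteasome and activator genes rose in 5 of 9 tested members. Of the activator subunits, Psme2 had 271, 223 and 256 CPM after LPS, against 101.3, 97.1 and 88.1 CPM after saline (1.39 ± 0.15, adjusted p = 1.4e-06). Psme1 had 291, 249 and 241 CPM after LPS, against 133, 124 and 102 CPM after saline (1.12 ± 0.16, adjusted p = 4.1e-05). Of the constitutive 26S proteasome, 25 of 31 subunit genes rose, and every tested subunit had a log2 fold change between 0.15 and 0.84. Psmc4, an ATPase of the regulatory particle, had 137, 120.3 and 122 CPM after LPS, against 71.3, 74.5 and 71.8 CPM after saline (0.80 ± 0.14, adjusted p = 0.00046). Psmb3, a core subunit, had 155, 179 and 154 CPM after LPS, against 98.5, 97.1 and 90.3 CPM after saline (0.77 ± 0.12, adjusted p = 0.00015).

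Of 24 co-stimulatory and checkpoint genes, 8 rose and 6 fell. Tnfsf9, the ligand of 4-1BB, was highest in LPS replicate 1, with 592, 183 and 264 CPM after LPS, against 39.7, 34.3 and 37.0 CPM after saline (3.22 ± 0.49, adjusted p = 7.3e-05). Cd300lf, a lipid-binding inhibitory receptor, had 86.3, 69.3 and 138 CPM after LPS, against 4.43, 3.75 and 4.02 CPM after saline (4.58 ± 0.42, adjusted p = 2.0e-07). Pilra, another inhibitory receptor, had 282, 181 and 173 CPM after LPS, against 20.02, 17.5 and 16.6 CPM after saline (3.55 ± 0.20, adjusted p = 4.4e-10). Cd274, which encodes PD-L1, had 63.9, 23.6 and 47.1 CPM after LPS, against 8.65, 9.48 and 16.2 CPM after saline (1.97 ± 0.41, adjusted p = 0.00162). Receptors known to restrain microglia were among those that fell. Sirpa, the CD47 receptor, had 1138, 1078 and 1263 CPM after LPS, against 2309, 2291 and 2338 CPM after saline (-0.996 ± 0.14, adjusted p = 2.4e-05). Cd200r1, the CD200 receptor, had 9.93, 9.60 and 14.8 CPM after LPS, against 28.4, 26.6 and 26.7 CPM after saline (-1.25 ± 0.25, adjusted p = 0.00106). The co-stimulator Cd86 had 604, 457 and 713 CPM after LPS, against 499, 504 and 605 CPM after saline, with overlapping groups, and did not pass (0.14 ± 0.19, adjusted p = 0.702).

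**Figure D3:**
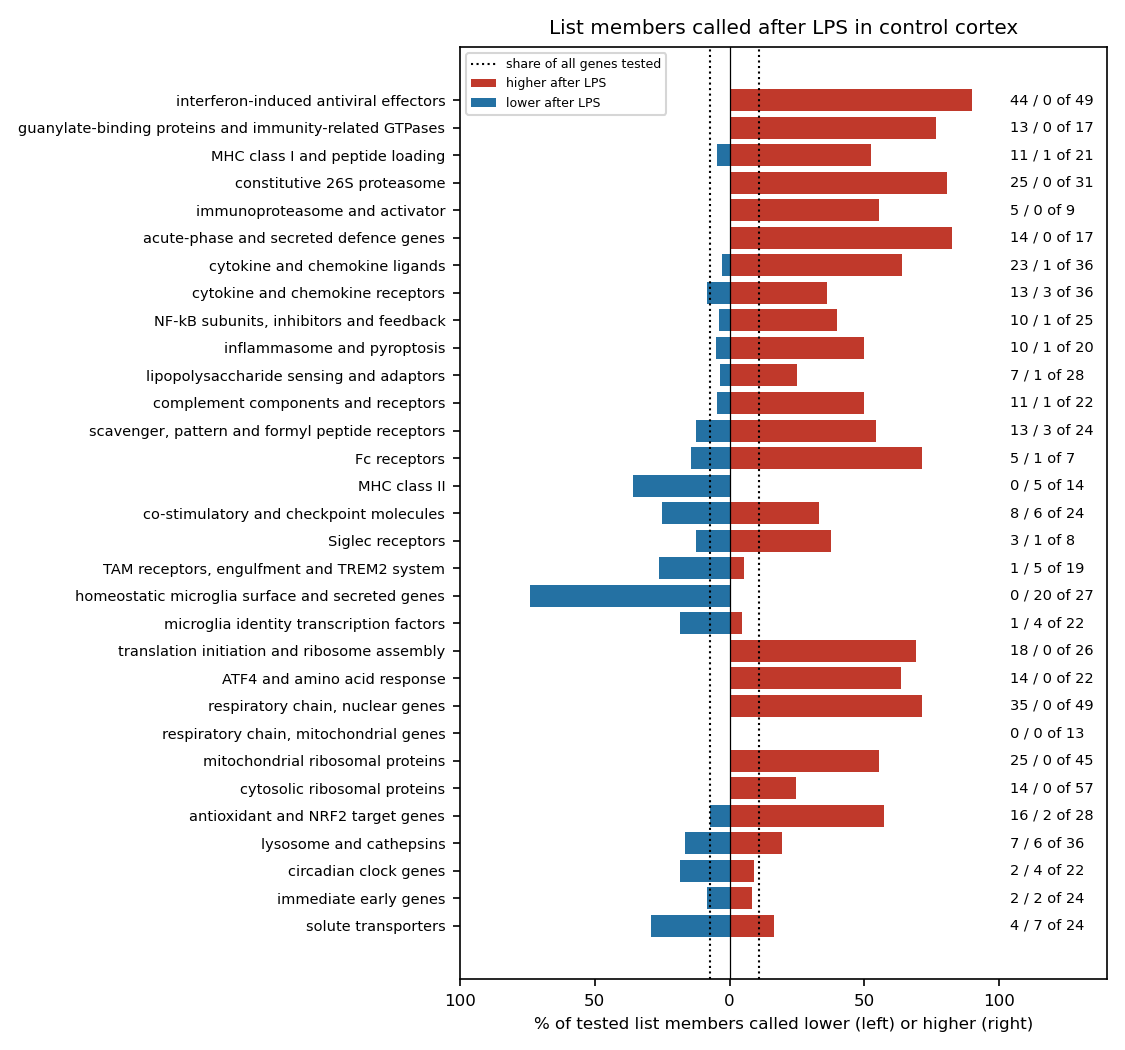
Share of the tested members of 31 gene lists called higher (red, to the right) or lower (blue, to the left) after LPS in control cortex, in percent (x axis), with the counts of higher and lower members at the right. Dotted lines mark the shares of all genes tested, 10.9% higher and 7.25% lower; antiviral effectors (44 of 49 higher) reach furthest right and homeostatic microglia genes (20 of 27 lower) furthest left.

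Engulfment and lysosomal genes were mixed. Of 19 genes of the TAM receptors, engulfment and the TREM2 system, 5 fell, and 3 did without LPS replicate 2, saline replicate 2 or saline replicate 3. Trem2, a lipid-sensing receptor, had 565, 678 and 564 CPM after LPS, against 1257, 1371 and 1132 CPM after saline (-1.06 ± 0.15, adjusted p = 2.8e-05). Elmo1, which links engulfment receptors to RAC, had 237, 155 and 314 CPM after LPS, against 645, 549.8 and 715 CPM after saline (-1.44 ± 0.23, adjusted p = 0.00017). Rac2, the RAC of blood cells, had 363, 301 and 309.6 CPM after LPS, against 192, 176 and 161 CPM after saline (0.88 ± 0.11, adjusted p = 7.0e-06). Disease-associated microglia genes, described in models of neurodegeneration, were divided, with 11 of 28 tested higher and 6 lower. Cd63, a tetraspanin of late endosomes, had 983, 1204 and 1084 CPM after LPS, against 269, 270.0 and 308 CPM after saline (1.95 ± 0.14, adjusted p = 1.5e-08). The tetraspanin gene Cd9 had 461, 497 and 431 CPM after LPS, against 858, 818 and 862 CPM after saline (-0.87 ± 0.11, adjusted p = 1.5e-05). Apoe had 2169, 1601 and 1327 CPM after LPS, against 2310.2, 2311 and 2635 CPM after saline and did not pass (-0.51 ± 0.21, adjusted p = 0.101).

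In the lysosome list 7 of 36 tested genes rose and 6 fell, with a median of -0.04 on the log2 scale. The cathepsin genes were divided. Ctsc, which activates granule proteases, had 3146, 2065 and 4169 CPM after LPS, against 879, 859 and 1179 CPM after saline (1.69 ± 0.26, adjusted p = 8.7e-05). Ctsl had 3088, 2874 and 3159 CPM after LPS, against 1257, 1286 and 1202 CPM after saline (1.28 ± 0.15, adjusted p = 4.3e-06). The LPS libraries of both lay above the saline libraries, whereas those of Ctsd, given above, lay below them. Ctsb had 4897, 3905 and 5309 CPM after LPS, against 4714, 4356 and 4606 CPM after saline and Ctss had 13121, 11729.5 and 16156 CPM after LPS, against 11747, 11800.4 and 11389.5 CPM after saline, and neither passed (0.05 ± 0.14, adjusted p = 0.895 and 0.23 ± 0.16, adjusted p = 0.375). Cystatins, which inhibit cathepsins, were divided too. Cst7, cystatin F, had 52.0, 33.0 and 36.3 CPM after LPS, against 13.4, 14.5 and 10.2 CPM after saline (1.67 ± 0.21, adjusted p = 9.6e-06), while Cst3 fell as given above. Hexa, the alpha subunit of hexosaminidase, had 678, 529.5 and 742 CPM after LPS, against 1427, 1501 and 1558 CPM after saline (-1.20 ± 0.15, adjusted p = 7.1e-06). Npc1, which exports cholesterol from lysosomes, had 55.4, 81.5 and 76.0 CPM after LPS, against 154, 168 and 162 CPM after saline (-1.18 ± 0.18, adjusted p = 9.0e-05). Autophagy adaptors fell in 5 of 20 tested members, in 3 without LPS replicate 1 or saline replicate 3, in 1 without saline replicate 1, and in 0 with all 24 libraries in the fit. The count was 10 by DESeq2, 8 with DESeq2 size factors and 9 with the replicate block. Map1lc3b, an LC3 gene, had 213, 201 and 221 CPM after LPS, against 313, 278 and 303 CPM after saline (-0.49 ± 0.12, adjusted p = 0.00767).

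Prostaglandin and leukotriene genes moved both ways. Ptgs2, the inducible cyclooxygenase, had 207, 91.7 and 256 CPM after LPS, against 21.2, 17.9 and 34.7 CPM after saline (2.91 ± 0.37, adjusted p = 1.0e-05). The constitutive Ptgs1 had 1096, 869.9 and 1233 CPM after LPS, against 1249.5, 1226 and 1284 CPM after saline and did not pass (-0.23 ± 0.14, adjusted p = 0.298). Alox5, which starts leukotriene synthesis, had 303, 242 and 372 CPM after LPS, against 93.6, 79.5 and 79.3 CPM after saline (1.86 ± 0.16, adjusted p = 7.1e-08). Its activator Alox5ap had 598, 617 and 689 CPM after LPS, against 349.6, 343 and 329 CPM after saline (0.90 ± 0.13, adjusted p = 5.4e-05). Both leukotriene genes passed the test upward, as did Ptgs2. Hpgd, which inactivates prostaglandins, had 144, 217 and 166 CPM after LPS, against 481, 466 and 390.4 CPM after saline (-1.34 ± 0.20, adjusted p = 7.9e-05). Tbxas1, thromboxane synthase, had 225, 187 and 232 CPM after LPS, against 341, 339 and 334 CPM after saline (-0.66 ± 0.13, adjusted p = 0.00134). Of the receptors, Ptger3 (EP3) had 2.08, 2.18 and 1.64 CPM after LPS, against 20.1, 19.6 and 19.4 CPM after saline (-3.32 ± 0.28, adjusted p = 6.4e-08). Ptafr, for platelet-activating factor, had 233, 152 and 274 CPM after LPS, against 424, 415 and 444 CPM after saline (-0.96 ± 0.18, adjusted p = 0.00079). The receptor gene Ptger2 (EP2) went the other way, with 77 counts over the LPS libraries and 0 over the saline libraries. Against a floor of 3 counts over the saline group, it was at least 23.9-fold higher after LPS. Its call was lost without saline replicate 1, 2 or 3. Over the list, 9 of 26 tested genes rose and 5 fell.

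Iron handling genes rose in 10 of 21 tested members. Slc39a14, a zinc and iron importer, had 41.8, 44.2 and 33.7 CPM after LPS, against 1.76, 4.77 and 3.46 CPM after saline (3.59 ± 0.34, adjusted p = 3.5e-07). The transferrin receptor gene Tfrc had 46.0, 48.9 and 52.9 CPM after LPS, against 27.8, 23.4 and 26.3 CPM after saline (0.93 ± 0.19, adjusted p = 0.00133), and it did not pass with all 24 libraries (adjusted p = 0.0694). Slc40a1 encodes ferroportin, the known iron exporter of cells, and it had 81.7, 62.3 and 109 CPM after LPS, against 382, 342 and 440.2 CPM after saline (-2.20 ± 0.25, adjusted p = 3.0e-06). With Fth1, given above, these genes of uptake and storage were higher and the exporter gene lower, without overlap in any of the 4. They are 4 of the 21 tested genes of the list, of which 1 fell and 10 did not pass. Cp, ceruloplasmin, had 171, 122 and 130 CPM after LPS, against 37.1, 27.3 and 37.0 CPM after saline (2.06 ± 0.24, adjusted p = 4.0e-06). Of 28 antioxidant and NRF2 target genes 16 rose. Sod2, of the mitochondrial matrix, had 286, 235 and 169.6 CPM after LPS, against 74.0, 67.0 and 71.7 CPM after saline (1.70 ± 0.16, adjusted p = 3.6e-07). Gpx1, glutathione peroxidase, had 489, 633 and 447 CPM after LPS, against 284, 257 and 239.7 CPM after saline (1.01 ± 0.16, adjusted p = 0.00011). Of 14 genes of NADPH oxidase, itaconate and nitric oxide synthesis 8 rose. Cybb, the catalytic subunit of the phagocyte oxidase, had 277, 174 and 192 CPM after LPS, against 59.2, 54.5 and 57.9 CPM after saline (1.91 ± 0.23, adjusted p = 4.6e-06). Nos2, inducible nitric oxide synthase, had 1.07, 0.0824 and 0.476 CPM after LPS, against 0.627, 0.203 and 0.0936 CPM after saline and did not pass (0.78 ± 1.14, adjusted p = 0.728).

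Respiratory chain genes of the nucleus rose in most members by small folds. Of 49 nuclear genes of the respiratory chain, 35 rose and none fell, with a median of 0.66 on the log2 scale and a range from 0.07 to 1.15. Cycs, cytochrome c, had 129.9, 121 and 103.8 CPM after LPS, against 61.3, 51.8 and 47.3 CPM after saline (1.15 ± 0.14, adjusted p = 5.7e-06). Atp5g1, of the ATP synthase ring, had 114, 121 and 97.5 CPM after LPS, against 55.8, 51.7 and 45.0 CPM after saline (1.13 ± 0.15, adjusted p = 1.9e-05). None of the 13 respiratory genes encoded in mitochondrial DNA passed, and their median was 0.05. The share of counts from mitochondrial DNA was 2.80%, 3.68% and 2.11% in LPS libraries and 3.18%, 3.18% and 2.10% in saline libraries, so the groups overlapped. Of 25 tricarboxylic acid cycle genes 4 rose, among them Idh3a, with 129.9, 114 and 123 CPM after LPS, against 57.3, 61.9 and 50.3 CPM after saline (1.11 ± 0.14, adjusted p = 6.8e-06). Pdk1, which inhibits pyruvate dehydrogenase, fell, with 65.2, 46.0 and 73.0 CPM after LPS, against 125, 116 and 118 CPM after saline (-0.96 ± 0.18, adjusted p = 0.00052).

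Of 25 glycolysis genes 9 rose. Pfkfb3, which makes the activator of phosphofructokinase, had 459, 198 and 401 CPM after LPS, against 121, 81.2 and 151 CPM after saline (1.59 ± 0.28, adjusted p = 0.00035). The lactate dehydrogenase subunits moved apart. Ldha had 683, 619 and 584 CPM after LPS, against 270.3, 295 and 250.2 CPM after saline (1.21 ± 0.11, adjusted p = 2.4e-07). Ldhb had 487, 438 and 527 CPM after LPS, against 869, 825 and 730.2 CPM after saline (-0.74 ± 0.17, adjusted p = 0.00339). Hexokinase genes did not follow Pfkfb3. Hk1 fell, with 28.1, 18.9 and 23.2 CPM after LPS, against 51.7, 45.6 and 46.7 CPM after saline (-1.04 ± 0.21, adjusted p = 0.00124). Hk2, the inducible form, had 169.8, 228 and 223 CPM after LPS, against 165, 165 and 155 CPM after saline and did not pass (0.36 ± 0.15, adjusted p = 0.102). Slc2a6, a hexose transporter of lysosomes, had 26.01, 18.7 and 25.5 CPM after LPS, against 1.00, 0.811 and 0.842 CPM after saline (4.71 ± 0.50, adjusted p = 1.3e-06). Genes of NAD metabolism moved both ways. Cd38, an NAD hydrolase, had 144, 82.6 and 141 CPM after LPS, against 23.5, 19.1 and 28.0 CPM after saline (2.38 ± 0.34, adjusted p = 3.7e-05). Bst1, its relative, had 4.80, 6.01 and 8.13 CPM after LPS, against 0.627, 0.203 and 0.281 CPM after saline (4.06 ± 0.67, adjusted p = 0.00019). Nampt, of the NAD salvage pathway, had 134, 132 and 147 CPM after LPS, against 58.3, 53.9 and 58.4 CPM after saline (1.27 ± 0.14, adjusted p = 2.1e-06). Qprt, of NAD synthesis from tryptophan, fell, with 1.99, 2.06 and 1.73 CPM after LPS, against 8.40, 10.1 and 5.80 CPM after saline (-2.07 ± 0.32, adjusted p = 0.0001).

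Of 26 genes of translation initiation and ribosome assembly, 18 rose and none fell, with a median of 0.85 on the log2 scale. Rrs1, a ribosome assembly factor, had 56.5, 45.4 and 44.0 CPM after LPS, against 10.9, 12.4 and 14.6 CPM after saline (1.94 ± 0.19, adjusted p = 3.6e-07). The helicase gene Eif4a1 had 986, 730.3 and 735 CPM after LPS, against 375, 255 and 292 CPM after saline (1.41 ± 0.16, adjusted p = 2.0e-06). Mitochondrial ribosomal proteins rose in 25 of 45 tested members (median 0.52), with Mrpl12 at 71.3, 70.7 and 45.2 CPM after LPS, against 28.5, 30.9 and 25.6 CPM after saline (1.14 ± 0.16, adjusted p = 4.3e-05). Cytosolic ribosomal proteins had nearly the same median, 0.49, but 14 of 57 passed, and the count depended on single libraries: leaving out LPS replicates gave 9 (replicate 1), 4 (replicate 2) or 25 (replicate 3), and leaving out saline replicates gave 8 (replicate 1) or 4 (replicate 3). Processed copies of ribosomal protein genes make such counts uncertain.

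Amino acid and folding stress genes rose in part. Of 22 genes of the ATF4 and amino acid response 14 rose, with a median of 0.999 on the log2 scale. Asns, asparagine synthetase, had 21.7, 33.0 and 18.9 CPM after LPS, against 2.05, 1.67 and 1.64 CPM after saline (3.77 ± 0.37, adjusted p = 4.9e-07). Psat1, of serine synthesis, had 197, 209 and 157 CPM after LPS, against 40.9, 43.5 and 37.0 CPM after saline (2.21 ± 0.16, adjusted p = 1.1e-08). Enzymes of the mitochondrial folate cycle were among them. Shmt2 had 132, 140.2 and 119 CPM after LPS, against 37.5, 37.8 and 32.8 CPM after saline (1.86 ± 0.17, adjusted p = 2.6e-07). Mthfd2 had 106, 155 and 95.2 CPM after LPS, against 15.7, 12.8 and 7.35 CPM after saline (3.31 ± 0.41, adjusted p = 8.7e-06). Ddit3 (CHOP), the factor tied to prolonged stress, had 26.3, 22.1 and 19.02 CPM after LPS, against 41.1, 35.1 and 19.9 CPM after saline and did not pass (-0.51 ± 0.36, adjusted p = 0.384). Of 24 genes of the unfolded protein response and endoplasmic reticulum chaperones 9 rose. Sdf2l1, a chaperone partner, had 340.1, 214 and 442 CPM after LPS, against 109.7, 118 and 126 CPM after saline (1.49 ± 0.27, adjusted p = 0.00047). Manf, a secreted stress protein, had 301, 228 and 261 CPM after LPS, against 104.05, 109 and 105 CPM after saline (1.31 ± 0.18, adjusted p = 2.2e-05). Of 18 cytosolic heat shock genes 10 rose, and 4 did without LPS replicate 1 or without saline replicate 3. The stress-inducible Hspa1a had 4276, 1742 and 568 CPM after LPS, against 792, 656 and 181 CPM after saline, replicate 1 being highest in both groups, and did not pass (2.02 ± 0.85, adjusted p = 0.114).

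**Figure D4:**
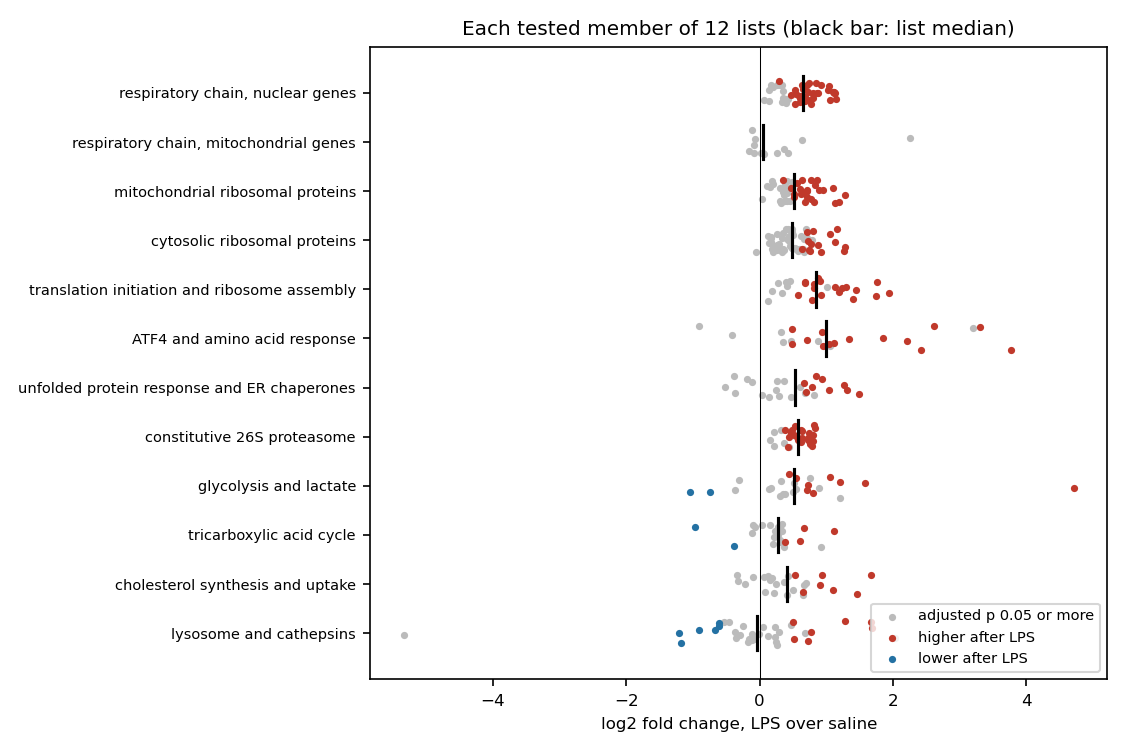
Log2 fold change, LPS over saline, of each tested member of 12 lists of metabolism, protein synthesis and folding (x axis), 1 point per gene, red where called higher, blue where called lower and grey where it did not pass. Black bars are list medians, 0.66 for nuclear and 0.05 for mitochondrial genes of the respiratory chain; the vertical line is no change.

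Cholesterol genes were higher in part. Of 25 synthesis and uptake genes 7 rose, 4 without LPS replicate 1 and 3 without saline replicate 2. Hsd17b7, a late enzyme of the pathway, had 13.3, 9.48 and 14.8 CPM after LPS, against 3.76, 4.41 and 5.43 CPM after saline (1.47 ± 0.30, adjusted p = 0.00127). Ch25h, which makes 25-hydroxycholesterol, had 24.4, 22.2 and 14.7 CPM after LPS, against 1.38, 1.22 and 0.608 CPM after saline (4.25 ± 0.48, adjusted p = 3.0e-06). Nr1h3, the oxysterol receptor LXR alpha, had 9.25, 10.6 and 7.70 CPM after LPS, against 0.585, 1.06 and 0.842 CPM after saline (3.47 ± 0.42, adjusted p = 6.8e-06). Its classical targets Abca1, with 259.5, 419 and 320.4 CPM after LPS, against 319, 377 and 333 CPM after saline, and Abcg1, with 357, 364 and 533 CPM after LPS, against 419, 376 and 360.4 CPM after saline, did not pass (-0.04 ± 0.25, adjusted p = 0.944 and 0.12 ± 0.19, adjusted p = 0.757). Plin2, which coats lipid droplets, had 235, 136 and 191 CPM after LPS, against 65.3, 60.1 and 70.1 CPM after saline (1.52 ± 0.23, adjusted p = 7.6e-05). Of 24 solute transporters 7 fell and 4 rose (2 rose from the 6 libraries alone). Slc31a2, a copper transporter, was among those that rose (1.15 ± 0.20, adjusted p = 0.0003). Among those that fell was Slc46a3, a lysosomal transporter, with 46.1, 26.7 and 50.4 CPM after LPS, against 143, 133 and 154 CPM after saline (-1.81 ± 0.20, adjusted p = 2.3e-06).

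Of 22 circadian clock genes 4 fell, and 7 did by DESeq2. Nr1d2 (REV-ERB beta), a repressor in the clock, had 6.39, 6.63 and 6.87 CPM after LPS, against 45.9, 46.8 and 70.7 CPM after saline, the LPS libraries being nearly equal (-3.04 ± 0.26, adjusted p = 9.3e-08). Tef, a PAR bZIP factor, had 11.9, 11.5 and 9.55 CPM after LPS, against 30.9, 34.5 and 23.6 CPM after saline (-1.43 ± 0.29, adjusted p = 0.00123). Dbp, of the same family, had 0.969, 3.13 and 1.08 CPM after LPS, against 5.14, 8.52 and 5.62 CPM after saline (-1.89 ± 0.55, adjusted p = 0.0212) but did not pass without LPS replicate 1, LPS replicate 3 or saline replicate 2. Nfil3, which opposes these factors, had 84.8, 59.9 and 89.2 CPM after LPS, against 29.01, 29.6 and 19.9 CPM after saline (1.58 ± 0.31, adjusted p = 0.00103). The core genes Arntl, with 15.4, 12.9 and 13.1 CPM after LPS, against 20.2, 16.9 and 14.8 CPM after saline, and Per1, with 72.9, 71.6 and 69.2 CPM after LPS, against 83.4, 116 and 64.0 CPM after saline, did not pass (-0.33 ± 0.19, adjusted p = 0.288 and -0.30 ± 0.34, adjusted p = 0.628). Collection time of day is not given in the sources used here, and its part was not tested. Immediate early genes, which tissue dissociation can induce, rose in 2 of 24 tested members and fell in 2. These shares, 8.33% each, are near the 10.9% higher and 7.25% lower of all genes tested. Jun and Egr3 fell and Ier3 rose, and each lost its call when some single libraries were left out. Fos and Egr1 were high in both groups and did not pass. Fos had 3443, 2972 and 3162 CPM after LPS, against 4584, 3007 and 3429 CPM after saline (-0.20 ± 0.23, adjusted p = 0.636). Egr1 had 1916, 2450.3 and 3131 CPM after LPS, against 3652, 2412 and 2686 CPM after saline (-0.22 ± 0.20, adjusted p = 0.533). Of 24 tested glucocorticoid-responsive genes 8 rose (33.3%, against 10.9% of all genes tested) and 1 fell, with a median of 0.78 on the log2 scale. Among those that rose were Il1r2, given above, Cdkn1a (2.03 ± 0.28, adjusted p = 3.1e-05), which encodes the cell cycle inhibitor p21, and the metallothionein gene Mt2 (2.40 ± 0.30, adjusted p = 8.5e-06). The one that fell, Arrdc2 (-0.87 ± 0.28, adjusted p = 0.0339), lost its call when any 1 of the 6 libraries was left out, with all 24 libraries or without the filter. Fkbp5 had 55.3, 117 and 91.9 CPM after LPS, against 185, 153 and 92.7 CPM after saline and Tsc22d3 had 355, 371 and 594 CPM after LPS, against 996, 695 and 361 CPM after saline; their groups overlapped and they did not pass (-0.70 ± 0.45, adjusted p = 0.337 and -0.64 ± 0.37, adjusted p = 0.271).

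Among chromatin enzymes, besides Tet1, the histone deacetylase gene Hdac5 fell, with 34.1, 31.9 and 22.05 CPM after LPS, against 78.3, 71.5 and 69.0 CPM after saline (-1.31 ± 0.26, adjusted p = 0.00119). The demethylase gene Kdm5b had 20.1, 23.9 and 32.1 CPM after LPS, against 53.7, 47.8 and 55.5 CPM after saline (-1.04 ± 0.17, adjusted p = 0.00014). Kat2a, an acetyltransferase, had 73.7, 74.0 and 71.9 CPM after LPS, against 45.2, 43.1 and 49.1 CPM after saline (0.68 ± 0.16, adjusted p = 0.00604). Genes of cell death and survival changed on both sides. Bcl2a1a, an anti-apoptotic BCL2 relative, had 135, 110.2 and 109 CPM after LPS, against 16.1, 18.0 and 31.4 CPM after saline (2.44 ± 0.24, adjusted p = 4.8e-07), with reads shared between the Bcl2a1 copies. Bcl2l11 (BIM), which promotes apoptosis, had 12.4, 14.5 and 17.6 CPM after LPS, against 36.9, 36.7 and 37.2 CPM after saline (-1.32 ± 0.19, adjusted p = 5.0e-05). Cdkn1a, the cell cycle inhibitor p21, had 316, 209 and 176 CPM after LPS, against 75.0, 57.2 and 39.7 CPM after saline (2.03 ± 0.28, adjusted p = 3.1e-05). Of 30 replication and proliferation genes 5 rose, 3 without LPS replicate 3 and 8 by DESeq2. Mcm6, of the replicative helicase, had 54.5, 30.5 and 59.3 CPM after LPS, against 23.6, 16.9 and 24.3 CPM after saline (1.15 ± 0.27, adjusted p = 0.00445). The proliferation marker Mki67 had 1.99, 3.34 and 1.5996 CPM after LPS, against 1.25, 1.37 and 1.08 CPM after saline, without overlap, and did not pass (0.90 ± 0.84, adjusted p = 0.547).

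Markers of cells other than microglia differed between groups in a few lists. Some border macrophage markers fell. Mrc1, the mannose receptor, had 150.01, 102 and 187 CPM after LPS, against 317, 292 and 464 CPM after saline (-1.29 ± 0.31, adjusted p = 0.00502), and it did not pass with all 24 libraries (adjusted p = 0.1). Mgl2, a lectin, had 7.94, 4.66 and 8.78 CPM after LPS, against 33.6, 37.4 and 47.0 CPM after saline (-2.47 ± 0.40, adjusted p = 0.00014). Cd209a, another lectin, had 1.99, 2.22 and 3.98 CPM after LPS, against 20.6, 29.2 and 46.0 CPM after saline (-3.54 ± 0.54, adjusted p = 8.8e-05). The defining markers Cd163, with 94.1, 28.4 and 90.6 CPM after LPS, against 55.2, 53.8 and 97.9 CPM after saline, and Lyve1, with 123, 42.5 and 93.3 CPM after LPS, against 53.9, 62.8 and 77.4 CPM after saline, overlapped and did not pass (0.04 ± 0.45, adjusted p = 0.977 and 0.41 ± 0.39, adjusted p = 0.553). Of 17 tested border macrophage markers 4 fell, and 7 fell without LPS replicate 1. S100a8, a calprotectin subunit of neutrophils, had 212, 377 and 258 CPM after LPS, against 38.8, 63.7 and 15.96 CPM after saline, with saline replicate 3 lowest (2.84 ± 0.62, adjusted p = 0.00245). The summed level of T, NK and B cell markers was 195 to 244 CPM in LPS libraries and 395 to 551 CPM in saline libraries, with 3 of 14 tested members higher and 3 lower. The defining T and B cell markers Cd3e and Cd79a were at most 0.406 CPM in every library and were not tested. The sum is therefore not a level of T or B cells, and which members held most of it was not tested. Gzmb, of cytotoxic granules, had 3.05, 4.33 and 4.67 CPM after LPS, against 0.0418, 0.0507 and 0.0936 CPM after saline (5.91 ± 0.76, adjusted p = 1.3e-05). Gzma, of the same granules, had 5.52, 12.9 and 22.3 CPM after LPS, against 0.669, 0.406 and 1.54 CPM after saline (3.95 ± 0.57, adjusted p = 5.0e-05). The NK receptor gene Klrd1 fell, with 0.436, 0.865 and 0.303 CPM after LPS, against 3.14, 6.19 and 2.90 CPM after saline (-2.91 ± 0.56, adjusted p = 0.00075). Gfap, the intermediate filament of reactive astrocytes, had 160.2, 15.7 and 16.2 CPM after LPS, against 4.26, 4.16 and 5.99 CPM after saline, so that LPS replicate 1 held most of it, and it was not called without that library (3.73 ± 0.98, adjusted p = 0.00989). It was the only one of 18 tested astrocyte markers that rose, while 2 fell (Glul and Slc1a3) and 15 did not pass. Neither Glul nor Slc1a3 passed without LPS replicate 2 or saline replicate 1.

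Endothelial markers summed to 1627 to 2253 CPM in LPS libraries and 1170 to 1625 CPM in saline libraries, so the groups lay next to each other. Of 20 tested endothelial markers 2 rose, 1 fell and 17 did not pass. These shares, 10% higher and 5% lower, are near the 10.9% higher and 7.25% lower of all genes tested. From the 6 libraries alone 4 rose. The endothelial identity genes Cldn5, with 162, 212 and 119 CPM after LPS, against 118, 81.2 and 86.6 CPM after saline and no overlap, and Cdh5, with 7.46, 11.7 and 4.89 CPM after LPS, against 7.98, 7.56 and 6.04 CPM after saline and overlapping groups, did not pass (0.79 ± 0.39, adjusted p = 0.194 and 0.16 ± 0.45, adjusted p = 0.881). Of 15 genes of activated endothelium 10 rose, with a median of 3.00, and their summed level was 1611 to 2416 CPM in LPS libraries and 749 to 955 CPM in saline libraries. Lrg1, Lcn2 and Ptgs2, described above, belong to that list, as does Ackr1. Selp, P-selectin, had 3.25, 1.36 and 2.85 CPM after LPS and 0 counts in the saline libraries, at least 53.9-fold higher against a floor of 3 counts over the saline group. Genes of the Ly6 family mark brain endothelium in mice, and their reads are partly shared. Ly6a had 252, 421 and 214 CPM after LPS, against 43.1, 34.3 and 38.8 CPM after saline (2.93 ± 0.41, adjusted p = 3.5e-05). Ly6c1 had 199.8, 357 and 120.2 CPM after LPS, against 64.8, 54.4 and 55.1 CPM after saline (1.96 ± 0.44, adjusted p = 0.00302). How much of the vessel signal came from endothelial cells in the fraction was not tested.

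**Figure D5:**
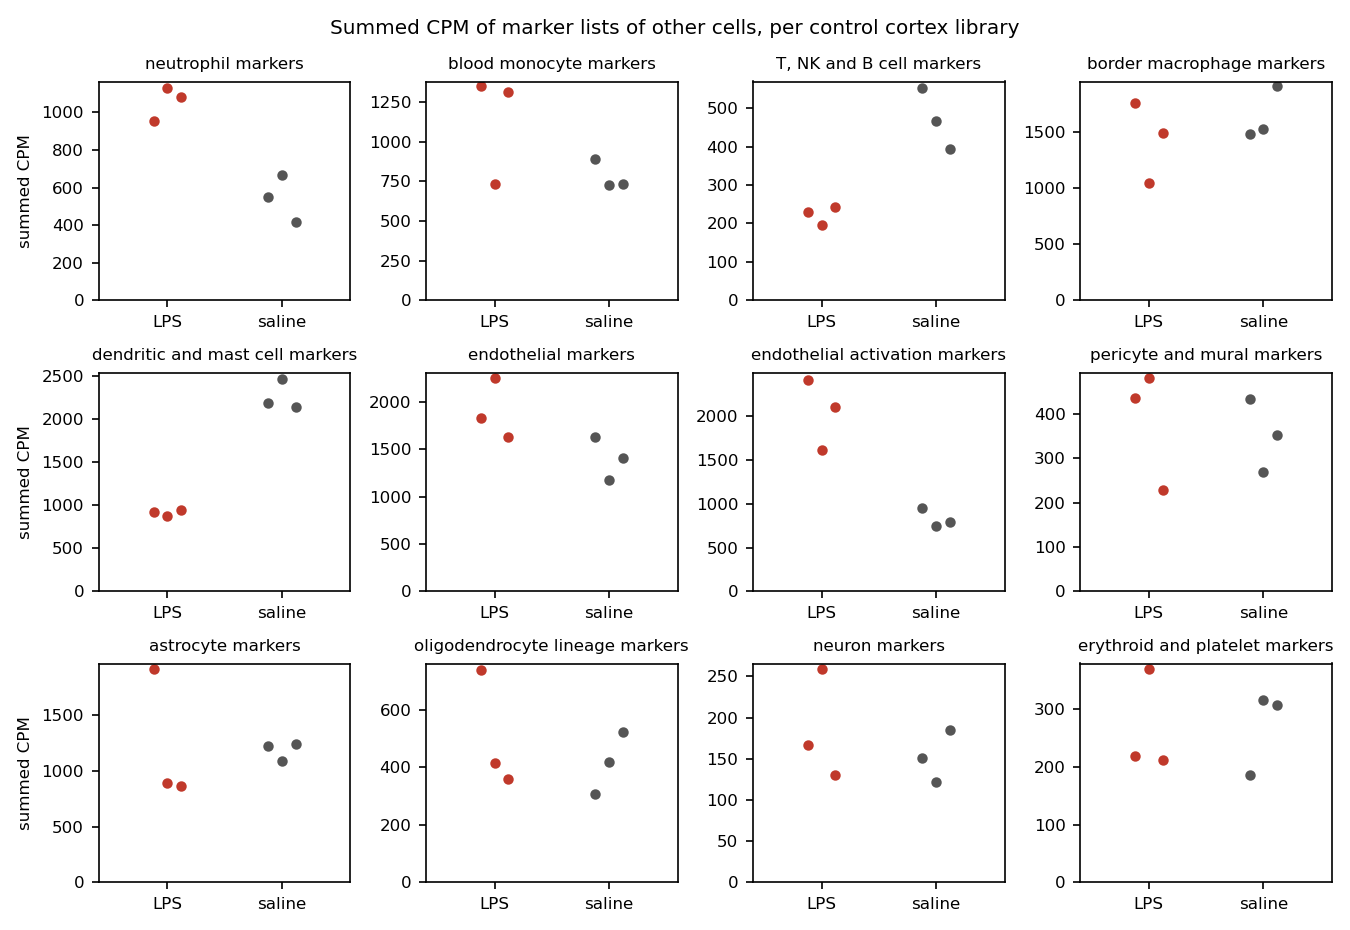
Summed CPM of 12 marker lists of cells other than microglia in each control cortex library (y axis, starting at 0), LPS libraries on the left and saline libraries on the right of each panel, replicates 1, 2 and 3 from left to right. Neutrophil markers lie at 956 to 1129 CPM after LPS and 415 to 665 CPM after saline, and the astrocyte panel shows LPS replicate 1 at 1910 CPM above the other libraries. Dendritic and mast cell markers lie at 881 to 942 CPM after LPS and 2142 to 2463.5 CPM after saline. Of the 10 tested members of that list 2 rose and 2 fell, with a median of 0.13 on the log2 scale, so the lower sum was not that of most members. The part of genes that microglia also express in these sums was not tested.

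The response of control cortex was set against that of control striatum and that of MIA cortex by testing the difference of LPS effects. In edgeR, 0 of 17125 genes differed from control striatum at an adjusted p under 0.05 (0.0% of genes tested), with 948 at an unadjusted p under 0.05, and DESeq2 called 10. Likewise 0 genes differed from MIA cortex (0.0%), with 744 at an unadjusted p under 0.05 and 1 (Mcemp1) called by DESeq2. These counts do not show that the responses were alike. Whether cortex and striatum libraries of 1 number came from 1 mouse is not stated, and the fit treated them as independent. Without control cortex LPS replicate 3, 2 genes (Sdc2 and Apod) differed from striatum. Without MIA cortex LPS replicate 3, 35 genes differed from MIA cortex, 34 of them with the higher log2 fold change in control cortex. Without MIA cortex saline replicate 3, 1 gene (Il1r2) differed. These genes were chosen after their values were seen.

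Side by side, the log2 fold change of P2ry12 was -2.29 ± 0.18 in control cortex, -2.19 ± 0.18 in control striatum and -1.96 ± 0.18 in MIA cortex. For Il1b it was 3.32 ± 0.24 in control cortex, 2.91 ± 0.24 in control striatum and 3.31 ± 0.24 in MIA cortex, and for Fcgr4 4.67 ± 0.19, 4.70 ± 0.19 and 4.27 ± 0.19 in the same order. Values were further apart for Isg15, at 3.67 ± 0.55 in control cortex, 2.81 ± 0.53 in control striatum and 1.87 ± 0.51 in MIA cortex. For Slc40a1 they were -2.20 ± 0.25 in control cortex, -1.999 ± 0.25 in control striatum and -1.48 ± 0.24 in MIA cortex. The median difference over the 49 antiviral effectors was 0.15 on the log2 scale for control cortex minus control striatum and 1.05 for control cortex minus MIA cortex. Over the 27 homeostatic genes the medians were -0.16 and -0.18. Over all genes tested they were -0.04 for control cortex minus control striatum and 0.02 for control cortex minus MIA cortex. No gene of either list passed the test of the difference.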

How the data were processed

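The authors' deposited table holds expected counts per gene from RSEM, which need not be whole; per the submitters' processing notes, STAR, RSEM and DESeq2 were used, with no versions. The genome build is not given in the sources used here. Expected counts (20.33% of those above 0 were not whole) were rounded. A library whose title marks it as excluded (MIA striatum LPS replicate 3) was left out, so 23 libraries with 19453295 to 29480499 counts were fitted together in 8 groups with edgeR 4.0.16 (R 4.3.3), which gave 1 estimate of the spread with 15 residual degrees of freedom: TMM scaling, filterByExpr (minimum count 10, minimum total 15), glmQLFit and glmQLFTest. P-values were adjusted by Benjamini-Hochberg over 17125 genes, with a threshold of 0.05. The SE of a log2 fold change was taken from its size and F. Alternatives were DESeq2 1.42.0, its size factors, no filter, all 24 libraries, the 6 libraries alone, a replicate block and leaving out each library. Symbols were matched for 55141 of 55487 gene IDs.

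Nothing in the labels says that replicates came from separate mice, so p-values measure the spread between these libraries, which may be technical. No 2 replicates agreed within sampling noise (chi-square per degree of freedom 37.9 or more). Intervals and floors cover counting error only. The members and the 71 gene lists were chosen with earlier results of these data known. Named genes are the 15 largest log2 rises and falls among called genes (10 CPM or more on average in 1 group, no overlap), the 12 largest rises and falls in CPM, up to 4 called members of each list in each direction with the smallest adjusted p, and a few fixed genes; predicted genes were passed over. Other genes in the text (such as Ifit1, Rsad2, Cd274, Myd88, Tfrc, Mthfd2, Selp and those that did not pass) were chosen after their values were seen. Promoters came from RefSeq (GRCm38.p6, 250 bases before the start in a window of 300 bases) by symbol; of several starts the first listed was taken. They were found for 12008 of the 17125 genes (70.1%), so motif shares were not compared between gene groups. A few genes that the rule names are not reported here.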

Additional observations from a re-analysis of the deposited data

How the results depend on the processing

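The count of genes called for LPS in control cortex was 3112, and stayed within 1.5 times that count in all settings: 3681 by DESeq2, 3103 with DESeq2 size factors, 2351 with all 24 libraries, 2568 from the 6 libraries alone, 2631 without the filter, and 2216 to 3049 when each library was left out in turn. With the replicate block 3510 genes were called, of which 3069 were among the 3112. Same-numbered LPS and saline libraries of control cortex correlated at 0.0341, 0.102 and 0.145 in their deviations from group means, so the numbers were not taken to pair the samples. Same-numbered control cortex and control striatum libraries correlated at 0.275, 0.276 and 0.315 after LPS and at 0.124, 0.0414 and 0.168 after saline. Different-numbered ones correlated at -0.174 to -0.109 after LPS and at -0.174 to 0.0749 after saline. With the replicate block 0 genes differed from control striatum (1075 at an unadjusted p under 0.05). That block held a term per replicate number across all groups. It did not model a mouse that gave both regions, so this count does not settle whether regions shared animals. Of the settings run on the 347 named genes, 3886 kept direction and side of the threshold, 277 lost the call in the same direction and 1 reversed: Tlr4, not called, had a log2 fold change of 0.009 (edgeR adjusted p = 0.998) without LPS replicate 1 and -0.450 (adjusted p = 0.277) without LPS replicate 3 of control cortex, the 2 ends of its range over the libraries left out. The number of genes that differed from control striatum was 10 by DESeq2 and 0 to 2 with a library left out. From MIA cortex it was 1 by DESeq2, 2 without the filter and 0 to 35 with a library left out. The cause was not tested. Depth limits genes near 0: with 3 counts as the floor over a group, the floor was 0.0441 CPM in LPS and 0.0461 CPM in saline libraries.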
